A study of Mus musculus with 4 samples.

Results

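The transcripts of 8 Frizzled receptor genes (Fzd1 to Fzd8) and of the co-receptor genes Lrp5 and Lrp6 were counted in bulk RNA-seq libraries from the bone marrow of mice. The samples are labelled Lsk, which usually stands for lineage-negative cells carrying Sca-1 and Kit, the fraction enriched for blood stem and progenitor cells. The members were taken by gene symbol from a table of 55399 genes, and all 10 were found, each with 1 row. Of the 4 libraries, 2 were labelled Ppm1bCKO (conditional knockout of the phosphatase gene Ppm1b) and 2 carried the label Ppm1bfl/fl (floxed alleles without the knockout label). The sources used here give neither the Cre line nor the age of the mice, nor whether replicates came from separate mice, so the p-values rest on a spread between libraries that may be technical. The series title links Ppm1b to stem cell self-renewal and to Wnt/β-catenin signalling, and the question here was whether transcripts of the receptors at the head of that pathway differed with the Ppm1b genotype.

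Frizzled proteins are membrane receptors that bind secreted Wnt ligands through a cysteine-rich domain outside the cell. When a Wnt ligand bridges a Frizzled and LRP5 or LRP6, the LRP tail is phosphorylated, Dishevelled and Axin are drawn to the membrane, and β-catenin is spared from destruction and enters the nucleus. Some Frizzleds also act without LRP5 and LRP6, in planar cell polarity and calcium signalling. In marrow, Wnt signals come from haematopoietic and stromal cells, and their dose is known to matter for stem cell maintenance.

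The Frizzled genes are paralogs, so the sequences were compared to see how far reads of one could be taken for another. Fzd1, Fzd2 and Fzd7 form a subfamily. Over aligned coding bases, Fzd1 was 82.7% identical to Fzd2 and 78.7% identical to Fzd7, whereas Fzd5 was 76.8% identical to Fzd8 and Fzd3 was 66.7% identical to Fzd6. Lrp5 and Lrp6 shared 69.5% of aligned coding bases. The longest identical coding run of Fzd1 and Fzd2, 47 bases, is shown with the same window of Fzd7, Fzd5 and Fzd4, because within it short reads could not be told apart by sequence alone. Fzd1 and Fzd7 shared an identical coding run of the same length elsewhere. Capitals mark bases that differ from Fzd1.
Fzd1: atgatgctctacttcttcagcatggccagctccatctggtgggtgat
Fzd2: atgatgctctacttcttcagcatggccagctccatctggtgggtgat
Fzd7: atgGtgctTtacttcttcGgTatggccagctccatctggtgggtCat
Fzd5: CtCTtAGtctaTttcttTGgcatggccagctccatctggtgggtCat
Fzd4: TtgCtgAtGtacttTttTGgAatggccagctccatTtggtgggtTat
These windows lie in coding exons at chr5:4756331-4756377 (minus strand, Fzd1), chr11:102605740-102605786 (plus, Fzd2), chr1:59483974-59484020 (plus, Fzd7), chr1:64735597-64735643 (minus, Fzd5) and chr7:89407665-89407711 (plus, Fzd4), mm10. Fzd7 differed from Fzd1 at 5 of the 47 bases, Fzd5 at 9 and Fzd4 at 10.

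No window of 50 bases in the longest coding transcripts of Fzd1, Fzd2, Fzd7, Fzd8, Lrp5 or Lrp6 occurred in a transcript of another annotated gene, on either strand. In Fzd3 and Fzd4, 12 and 11 such windows did, or 0.0946% and 0.165% of the transcript, none of them coding. Fzd5 shared 16.6% of its windows with Gm38058, an annotated gene on the opposite strand that overlaps 17.8% of its exonic length, and Fzd6 shared 2.41% with the opposite-strand Gm26704. Gm38058 was listed with 1 and 0 counts in the Ppm1bCKO libraries and with 0 and 0 in the Ppm1bfl/fl libraries. The sources used here do not give the read length, the use of strand or how reads in overlapping genes were counted, so counts of Fzd5 and Fzd6 are the least certain in this respect.

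Total counts ran from 22393973 to 30045382 per library. Ppm1b itself was not lower in the libraries labelled Ppm1bCKO (84.3 and 121 CPM, counts scaled to library size with TMM factors for library composition) than in those labelled Ppm1bfl/fl (80.8 and 82.5 CPM). Its count sums all exons and does not show whether one was deleted, so the genotype rests on the labels in each comparison here. Kit and Ly6a (Sca-1), which define the sort, stood at 187 and 121 CPM and at 17.7 and 22.2 CPM in Ppm1bCKO, against 228 and 194 CPM and 22.2 and 18.3 CPM in Ppm1bfl/fl. The eosinophil gene Prg2 (1484 to 4200 CPM over the libraries) and the haemoglobin gene Hbb-bs (2783 to 7038 CPM) were more abundant than either. Ppm1bCKO replicate 2 stood apart from the other 3 libraries in its values for short and long genes, as given below with the lengths of the members.

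Levels of different genes were compared per exonic length, as RPKM, that is, CPM divided by the exonic length in kilobases that the deposited table gives. That length joins all annotated exons of a gene. It is 9738 and 13672 bases for Lrp5 and Lrp6, whose longest coding transcripts have 5161 and 9368, and 4532 by both measures for Fzd7. RPKM of Lrp5 and Lrp6, and their ratios to each other and to the Frizzleds, depend on this choice of length. Lrp5 was the most abundant member, with a mean of 7.05 RPKM over the 4 libraries, then Lrp6 at 4.07, Fzd7 at 2.98 and Fzd5 at 1.60. Fzd6 (0.719), Fzd1 (0.601) and Fzd4 (0.581) formed a second tier, and Fzd8 (0.114), Fzd3 (0.0870) and Fzd2 (0.0497) stood lowest. Over all 4 libraries the RPKM ranges of Fzd7 and Fzd5 did not overlap, nor those of Fzd5 and Fzd6, nor those of Fzd4 and Fzd8. Neighbours within the second tier and within the lowest 3 were not separated. The ranges of Lrp5 and Lrp6 overlapped, although Lrp5 was above Lrp6 in each of the 4 libraries, and likewise Lrp6 stood above Fzd7 in each. Levels were moderate to low: 59.0% of the 16393 genes with enough reads to be tested had a lower mean RPKM than Lrp5, 41.9% a lower one than Fzd7, and 2.82% a lower one than Fzd8.

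**Figure D1:**
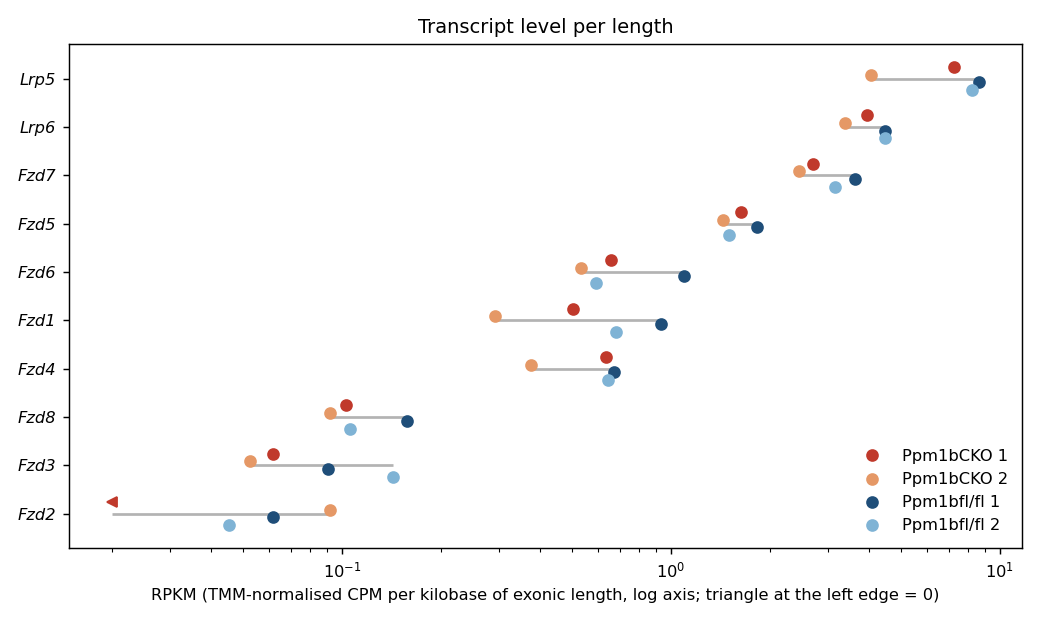
RPKM (log axis) of each gene in each library, ordered by the mean over the 4 libraries; grey lines span the lowest and highest library, and the triangle marks Fzd2 at 0 in Ppm1bCKO replicate 1. Fzd7 and Fzd5 are separated from each other and from the remaining Frizzled genes, while Fzd6, Fzd1 and Fzd4 overlap.

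Receptor and co-receptor transcripts tended to be lower in the Ppm1bCKO libraries than in the Ppm1bfl/fl libraries, and none of these differences passed the test. The test was edgeR's quasi-likelihood test of Ppm1bCKO over Ppm1bfl/fl, adjusted by the Benjamini-Hochberg method over all 16393 tested genes, with a threshold of 0.05. It called 0.372% of all tested genes, 0.311% lower in Ppm1bCKO. Of the 10 members, 9 passed the low-count filter (all except Fzd2), and 0 of the 9 were called by edgeR. DESeq2 called 0 of the 9, against 1.21% of all tested genes, and limma-voom called 0 of the 9, against 0.311%. In edgeR 1 of the 9, Fzd1, had an unadjusted p under 0.05, as had 6.44% of all tested genes, 3.21% lower in Ppm1bCKO. With DESeq2 size factors (0.378% of all genes called), all genes kept that had a count (1.1%), a minimum CPM of 1 in 2 libraries (0.392%), the replicate number as a block (1.26%) or the length trend of each library removed (0.336%), edgeR again called 0 of the tested members. The 9 had log2 fold changes from -1.03 to -0.11, with a median of -0.42, where the median over all tested genes was -0.0032 and 50.4% of them were negative. In 7 of the 9, both Ppm1bCKO libraries lay below both Ppm1bfl/fl libraries, which was so for 20.6% of all tested genes.

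**Figure D2:**
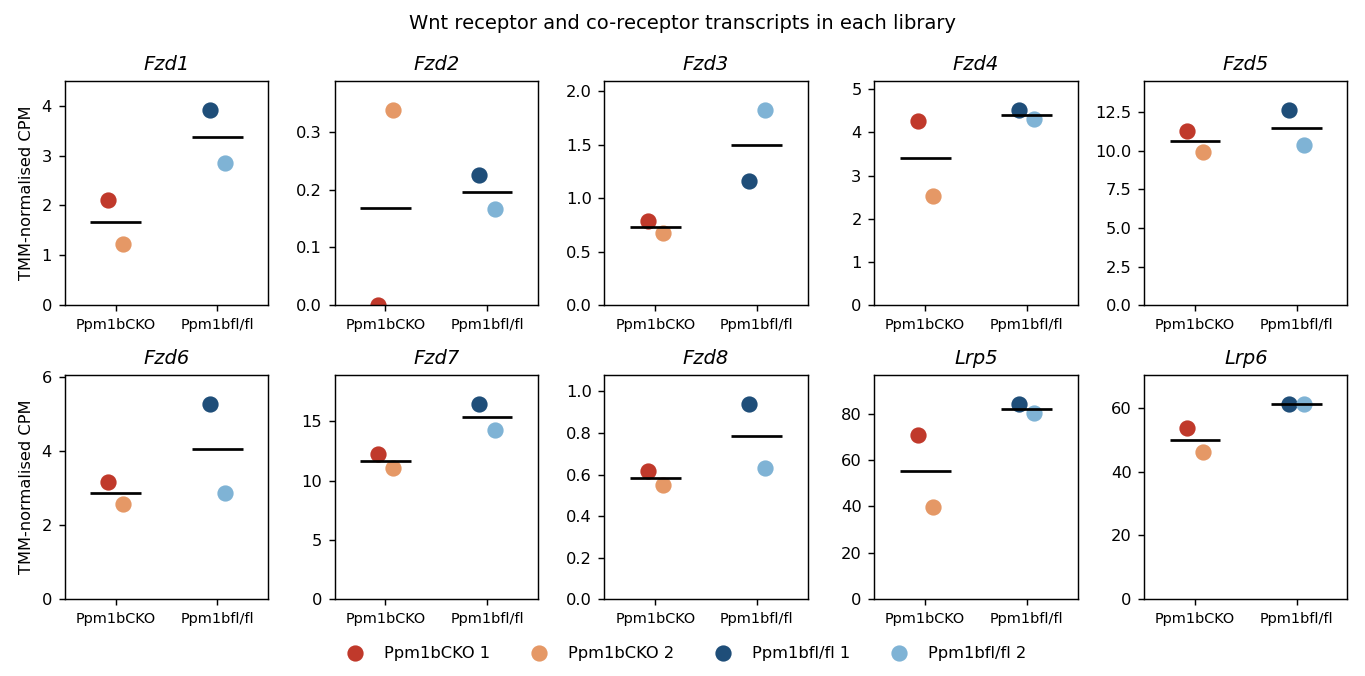
TMM-normalised CPM of each gene in each library (points) with the mean of each genotype (black lines); each panel has its own axis from 0. In 7 genes both Ppm1bCKO points lie below both Ppm1bfl/fl points, whereas in Fzd2, Fzd5 and Fzd6 the genotypes overlap.

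Fzd7, which acts in Wnt signalling of intestinal stem cells in mice, was the most abundant Frizzled. The gene has a single exon (ENSMUSG00000041075.8, chromosome 1, 59482424 to 59486955, plus strand). It stood at 12.3 and 11.1 CPM in Ppm1bCKO replicates 1 and 2, against 16.5 and 14.3 CPM in Ppm1bfl/fl replicates 1 and 2. The genotypes did not overlap, and the nearest libraries of the 2 genotypes were about as far apart as the Ppm1bfl/fl libraries. The log2 fold change was -0.40 ± 0.21 (SE; 95% interval -0.88 to 0.093; edgeR adjusted p = 0.717).

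Fzd1, of the same subfamily, had the smallest unadjusted p of the members. It also has 1 exon (ENSMUSG00000044674.6, chromosome 5, 4753839 to 4758035, minus strand). Counts were 48 and 29 in the Ppm1bCKO libraries, against 104 and 86 in the Ppm1bfl/fl libraries, or 2.11 and 1.22 CPM against 3.91 and 2.85 CPM. Its level was 2.03-fold lower in Ppm1bCKO, a log2 fold change of -1.02 ± 0.39 with a 95% interval of -1.91 to -0.13 that leaves out 0, but the edgeR adjusted p over all genes was 0.717. It rests on 77 counts in Ppm1bCKO and 190 in Ppm1bfl/fl.

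Fzd2, the third of the subfamily, was close to the limit of detection. This gene of 1 exon (ENSMUSG00000050288.6, chromosome 11, 102604396 to 102608058, plus strand) had 0 and 8 counts in the Ppm1bCKO libraries and 6 and 5 counts in the Ppm1bfl/fl libraries. The count of 0 has an upper 95% limit of about 3 counts, or 0.132 CPM, which covers counting error only. No difference was detectable at this depth, and the gene entered no test.

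Promoters of 4 of the 10 members (Fzd1, Fzd4, Fzd5 and Fzd7) matched the RefSeq table for GRCm38.p6 (250 bases before to 50 after the annotated start). Those of Fzd1 and Fzd7 are shown because they are tested genes of 1 subfamily, both without overlap between genotypes, and differ in promoter make-up. Capitals mark the motifs searched on both strands, which were the TATA box (TATAAA), the box that nuclear factor Y binds (CCAAT), the GC box that Sp1 binds (GGGCGG) and the core element of TCF and LEF factors (ATCAAAG).
Fzd1: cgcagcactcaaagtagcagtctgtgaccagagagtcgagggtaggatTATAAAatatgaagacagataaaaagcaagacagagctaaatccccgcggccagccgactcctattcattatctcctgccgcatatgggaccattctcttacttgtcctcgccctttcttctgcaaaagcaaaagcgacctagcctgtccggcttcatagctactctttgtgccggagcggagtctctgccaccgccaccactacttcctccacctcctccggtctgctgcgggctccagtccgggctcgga
Fzd7: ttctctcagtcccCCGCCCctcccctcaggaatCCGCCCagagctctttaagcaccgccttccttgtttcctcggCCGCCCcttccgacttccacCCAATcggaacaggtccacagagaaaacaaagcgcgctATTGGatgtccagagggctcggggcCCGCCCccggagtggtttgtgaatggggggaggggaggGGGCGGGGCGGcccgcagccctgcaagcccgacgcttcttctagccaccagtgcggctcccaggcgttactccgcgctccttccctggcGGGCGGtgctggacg
They lie at chr5:4758167-4758466 (minus strand) and chr1:59481897-59482196 (plus strand). For both genes the RefSeq start is upstream of the gene start given above, so neither window reaches the exon that was counted. The Fzd1 window held 1 TATAAA and no GC box, with 16 CpG dinucleotides and 54.0% G and C. That TATAAA lies near the upstream end of the window, not next to the start. The Fzd7 window held 7 GC boxes, some overlapping, and 2 CCAAT boxes, with 24 CpG dinucleotides and 66.7% G and C. Fzd4 and Fzd5 had 8 and 10 GC boxes. Among all 32851 promoters in the table, 35.7% held a GC box, 13.6% TATAAA, 37.4% CCAAT and 3.73% the TCF/LEF core, which none of the 4 windows held in these letters. A match of letters is not a shown binding site.

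Fzd5 and Fzd8 form another subfamily, and they stood far apart in level. Fzd5, a Wnt receptor needed for vessel growth in the mouse yolk sac and placenta (ENSMUSG00000045005.9, chromosome 1, 64730558 to 64737751, minus strand, 2 exons), had 11.3 and 9.94 CPM in the Ppm1bCKO libraries, against 12.6 and 10.4 CPM in the Ppm1bfl/fl libraries. The genotypes overlapped, and its log2 fold change of -0.11 ± 0.23 was the closest to 0 of the members (95% interval -0.64 to 0.41; edgeR adjusted p = 0.886). Fzd8, described in mice as a receptor of quiescent stem cells in the marrow niche (ENSMUSG00000036904.6, chromosome 18, 9212163 to 9218136, plus strand, 1 exon), had only 14 and 13 counts in the Ppm1bCKO libraries and 25 and 19 counts in the Ppm1bfl/fl libraries. That is 0.616 and 0.548 CPM against 0.939 and 0.630 CPM, without overlap, and a log2 fold change of -0.42 ± 0.51 (95% interval -1.58 to 0.74; edgeR adjusted p = 0.803). For Fzd8 it was -0.12 without Ppm1bfl/fl replicate 1.

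Fzd3 and Fzd6 are best known for planar cell polarity, Fzd3 in axon guidance and Fzd6 in the patterning of mouse hair. Fzd3 (ENSMUSG00000007989.7, chromosome 14, 65192449 to 65262463, minus strand, 8 exons) had 18 and 16 counts in the Ppm1bCKO libraries, against 31 and 55 counts in the Ppm1bfl/fl libraries, or 0.792 and 0.674 CPM against 1.16 and 1.82 CPM. Its log2 fold change of -1.03 ± 0.45 was the lowest of the members (95% interval -2.07 to 0.012; edgeR adjusted p = 0.717). Fzd6 (ENSMUSG00000022297.15, chromosome 15, 39006034 to 39038188, plus strand, 9 exons) had 3.17 and 2.57 CPM in the Ppm1bCKO libraries, against 5.26 and 2.85 CPM in the Ppm1bfl/fl libraries. Only Ppm1bfl/fl replicate 1 was high, and the genotypes overlapped (log2 fold change -0.50 ± 0.37; 95% interval -1.34 to 0.34; edgeR adjusted p = 0.727).

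Fzd4, a receptor for both Wnt ligands and norrin in retinal vessels, was even in 3 libraries and lower in the remaining one. The gene (ENSMUSG00000049791.4, chromosome 7, 89404355 to 89413134, plus strand, 2 exons) had 4.27 and 2.53 CPM in the Ppm1bCKO libraries, against 4.51 and 4.31 CPM in the Ppm1bfl/fl libraries. Its log2 fold change came to -0.38 ± 0.33 (95% interval -1.13 to 0.38; edgeR adjusted p = 0.750). With Ppm1bCKO replicate 2 left out, the value was -0.048.

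Summed over the 8 genes, Frizzled transcripts amounted to 6.30 and 5.32 RPKM in the Ppm1bCKO libraries, against 8.46 and 6.85 RPKM in the Ppm1bfl/fl libraries. The means were 5.81 ± 0.69 RPKM in Ppm1bCKO and 7.66 ± 1.14 RPKM in Ppm1bfl/fl (SD, n = 2 each). Fzd7 held 44.5% ± 2.1 of the summed RPKM in Ppm1bCKO and 44.4% ± 2.1 in Ppm1bfl/fl. The share of Fzd5 was 25.9% and 27.0% in the Ppm1bCKO libraries, against 21.6% and 21.9% in the Ppm1bfl/fl libraries, and that of Fzd1 was 7.98% and 5.47% against 11.0% and 9.91%. These shares are parts of 1 sum, so a lower share of one gene raises those of the others. With 2 libraries a genotype, a two-sided exact permutation test could not reach the threshold, and none was run on the sums.

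**Figure D3:**
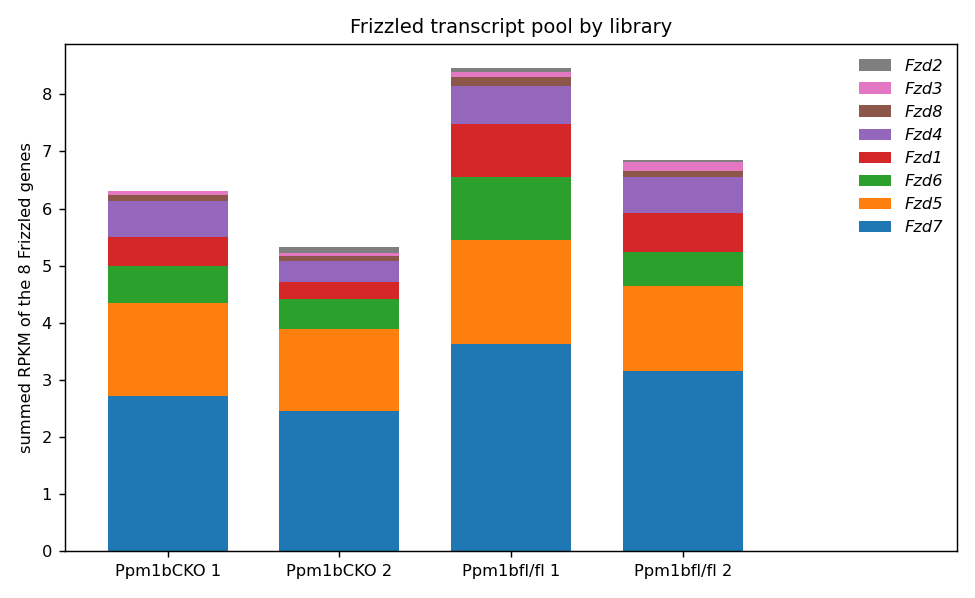
Summed RPKM of the 8 Frizzled genes in each library (bars from 0), stacked by gene. The total is 6.30 and 5.32 in the Ppm1bCKO libraries and 8.46 and 6.85 in the Ppm1bfl/fl libraries, and Fzd7 and Fzd5 together make up between 64.5% and 73.0% of each bar.

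The co-receptors had the deepest counts of the members. Lrp5, whose loss lowers bone mass in humans and mice (ENSMUSG00000024913.16, chromosome 19, 3584828 to 3686564, minus strand, 23 exons), had 1608 and 940 counts in the Ppm1bCKO libraries, against 2240 and 2420 counts in the Ppm1bfl/fl libraries. That is 70.7 and 39.6 CPM in Ppm1bCKO, against 84.2 and 80.2 CPM in Ppm1bfl/fl. The Ppm1bfl/fl libraries were close to each other and Ppm1bCKO replicate 2 stood apart, so the mean level was 55.2 ± 22.0 CPM in Ppm1bCKO and 82.2 ± 2.8 CPM in Ppm1bfl/fl (SD, n = 2 each). The log2 fold change was -0.58 ± 0.26 (95% interval -1.16 to 0.012; edgeR adjusted p = 0.717). Without Ppm1bCKO replicate 2 it was -0.22.

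Lrp6, the more widely required of the pair in mouse development (ENSMUSG00000030201.15, chromosome 6, 134446476 to 134566965, minus strand, 22 exons), had 53.7 and 46.3 CPM in the Ppm1bCKO libraries, against 61.2 and 61.1 CPM in the Ppm1bfl/fl libraries. The genotypes did not overlap, and the log2 fold change of -0.29 ± 0.17 had the smallest SE of the members (95% interval -0.67 to 0.090; edgeR adjusted p = 0.717). Per length, Lrp5 was 1.85 and 1.20 times as abundant as Lrp6 in Ppm1bCKO replicates 1 and 2, and 1.93 and 1.84 times in the Ppm1bfl/fl libraries, so only Ppm1bCKO replicate 2 departed from the common ratio. Summed RPKM of the co-receptors over that of the Frizzleds was 1.78 and 1.40 in Ppm1bCKO, against 1.55 and 1.86 in Ppm1bfl/fl, and overlapped.

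The lower values were not spread evenly over the libraries. Ppm1bCKO replicate 2 was the lowest of the 4 libraries in 9 of the 9 tested members, and in 37.2% of all tested genes. Ppm1bfl/fl replicate 1 was the highest in 8 of the 9, and in 26.0% of all tested genes. Against the mean of the Ppm1bfl/fl libraries on the log2 scale, the median over the 9 was -0.22 in Ppm1bCKO replicate 1 and -0.52 in replicate 2. In a fit with Ppm1bCKO replicate 1 left out, so that replicate 2 alone stood for the genotype and was assumed to vary like the Ppm1bfl/fl libraries, edgeR called Fzd1 (log2 fold change -1.46, edgeR adjusted p = 0.0271), Lrp5 (-1.06, edgeR adjusted p = 0.000398) and Lrp6 (-0.40, edgeR adjusted p = 0.0472). There, 19.4% of all tested genes were called, 9.22% lower. Without Ppm1bCKO replicate 2 (0.547% of all genes called), Ppm1bfl/fl replicate 1 (0.856%) or Ppm1bfl/fl replicate 2 (1.25%), 0 members were called. Without Ppm1bfl/fl replicate 1, Fzd5 and Fzd6 had log2 fold changes of 0.030 and 0.0047, and the other 7 were negative.

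**Figure D4:**
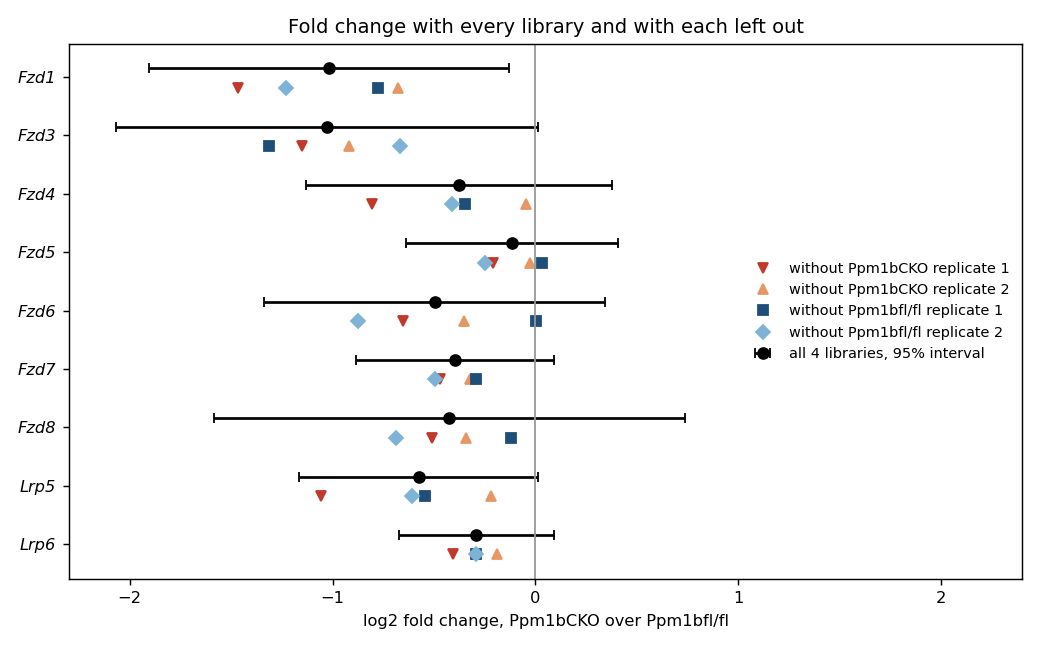
Log2 fold change of Ppm1bCKO over Ppm1bfl/fl for the 9 tested genes with its 95% interval (black) and with each library left out in turn (coloured symbols). Fzd4 and Lrp5 lie nearer 0 without Ppm1bCKO replicate 2, and Fzd5 and Fzd6 reach 0 without Ppm1bfl/fl replicate 1.

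The tested members ran from middling to long in exonic length, and fold changes in these libraries moved with that length. The Frizzled genes ran from 3663 to 12804 exonic bases, and Lrp5 and Lrp6 had 9738 and 13672. Lrp6 was longer than 97.0% of the tested genes and Fzd1 longer than 55.6%. When the tested genes were split by length into 5 groups of equal size, the median log2 fold change was 0.17, 0.11, 0.019, -0.060 and -0.15 from the shortest to the longest group, and 29.7% of the longest genes were lower in both Ppm1bCKO libraries than in both Ppm1bfl/fl libraries. Ppm1bCKO replicate 2 carried most of this trend, with a median deviation from the 4-library mean (log2 scale) of 0.17 in the shortest group and -0.20 in the longest, against -0.061 and 0.066 in Ppm1bCKO replicate 1. With each library's length trend removed, the log2 fold change was -0.076 for Lrp6 and -0.028 for Fzd5, while Fzd1 stood at -1.01, Fzd3 at -0.83, Lrp5 at -0.46 and Fzd7 at -0.38. The median over the 9 was then -0.38, and 0 of them were called. Fzd1 and Fzd7, in the middle group where the median of all genes was 0.019, moved least with this correction.

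**Figure D5:**
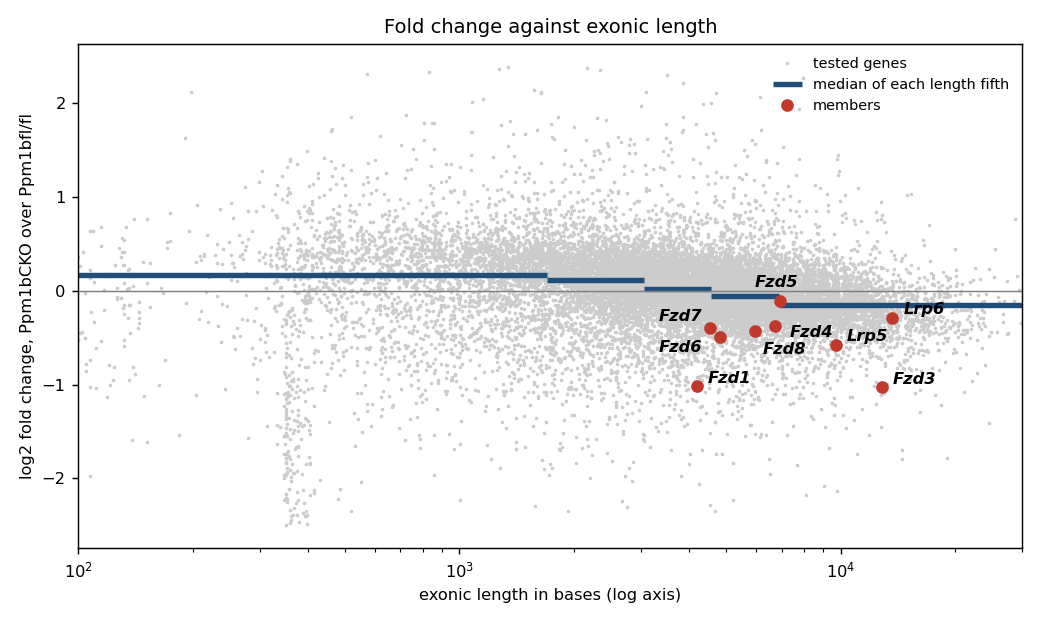
Log2 fold change of Ppm1bCKO over Ppm1bfl/fl against exonic length (log axis) for tested genes (grey; points beyond the axes are not drawn), the median of each of 5 length groups (blue bars) and the 9 tested receptor and co-receptor genes (red). The medians run from 0.17 in the shortest group to -0.15 in the longest, and each of the 9 except Fzd5 lies below the bar of its length group.

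In bulk RNA, fewer cells of a type and fewer transcripts per cell cannot be told apart. Markers of Lsk and stem cells themselves, led by Kit and Cd34, had negative log2 fold changes in 11 of 12, 1 of them without overlap. They summed to 625 and 503 CPM in Ppm1bCKO against 747 and 595 CPM in Ppm1bfl/fl, so Ppm1bCKO replicate 2 was lowest and Ppm1bfl/fl replicate 1 highest, as in most members. Macrophage markers, such as Hmox1 and Vcam1, had lower values alongside the receptors: 14 of 14 had a negative log2 fold change, 11 without overlap (20.6% of all tested genes were lower in this way), and their summed level was 593 and 720 CPM in Ppm1bCKO against 962 and 1002 CPM in Ppm1bfl/fl. Between the Ppm1bCKO libraries that sum was lower in replicate 1. In replicate 2, 9 of 9 members were lower than in replicate 1, as were 49.7% of all tested genes. Plasma cell markers summed to 2398 and 2896 CPM in Ppm1bCKO against 13106 and 7918 CPM in Ppm1bfl/fl, with 8 of 10 negative and 1, Igha, called lower. Stromal and bone markers, led by Col1a2 and Col1a1, summed to 803 and 569 CPM in Ppm1bCKO against 439 and 588 CPM in Ppm1bfl/fl, with 5 of 14 negative, and endothelial markers to 152 and 153 CPM against 154 and 128 CPM. Megakaryocyte markers were negative in 8 of 9, with sums of 516 and 578 CPM in Ppm1bCKO against 917 and 332 CPM in Ppm1bfl/fl that overlapped. B cell markers (12 of 12), dendritic cell markers (10 of 12) and eosinophil markers (7 of 8) mostly had positive log2 fold changes. B cell markers summed to 361 and 745 CPM in Ppm1bCKO against 242 and 244 CPM in Ppm1bfl/fl. Eosinophil sums were 4139 and 7251 CPM against 2778 and 3026 CPM, and dendritic sums 867 and 907 against 739 and 675. Erythroid sums were 11249 and 16117 CPM against 7519 and 13309 CPM, and neutrophil sums 4643 and 5449 against 4629 and 4482. Each of these sums was highest in Ppm1bCKO replicate 2. No marker of the 13 lists was at 0 in every library, and the part of other cell types in the receptor values was not tested.

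Of the Frizzleds outside the members, Fzd9, which has a role in mouse B cell development, had 2.07 and 1.22 CPM in Ppm1bCKO against 1.58 and 1.49 CPM in Ppm1bfl/fl (log2 fold change 0.098 ± 0.41; edgeR adjusted p = 0.951). Fzd10 had 0 and 3 counts in Ppm1bCKO and 1 and 4 counts in Ppm1bfl/fl and was not tested. Smo, the Hedgehog signal transducer of the same receptor class, had 27.6 and 20.5 CPM in Ppm1bCKO against 27.8 and 34.6 CPM in Ppm1bfl/fl (-0.38 ± 0.22; edgeR adjusted p = 0.717).

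Among 82 further genes of the receptor side of the pathway in 9 lists, 47 were tested, 30 with a negative and 17 with a positive log2 fold change, and the median was -0.11. EdgeR (0.372% of all genes called) and limma-voom (0.311%) called 0 of the 47. An unadjusted edgeR p under 0.05 was found for 3, as for 6.44% of all tested genes. DESeq2 (1.21%) called 1, the LDL receptor relative Lrp1. With all 4 libraries, edgeR also called 1, again Lrp1, with the replicate number as a block (edgeR adjusted p = 4.88e-04, 1.26% of all genes called). It did so too without the low-count filter (edgeR adjusted p = 1.44e-06, 1.1% of all genes called). Leaving out a library leaves 1 genotype without a replicate, so only effect sizes of Lrp1 are given for such fits. The log2 fold change of Lrp1 was -1.59 without Ppm1bCKO replicate 1, -0.75 without Ppm1bCKO replicate 2 and -1.17 without Ppm1bfl/fl replicate 2. Its value without Ppm1bfl/fl replicate 1 is not reported here. The pair with the smallest p in each list is named below, and with all 4 libraries and the filter as above none of them passed in edgeR without the block.

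Wnt ligands were scarce. Of 19 ligand genes, 5 passed the filter, and Wnt3, Wnt7a, Wnt7b and Wnt9b were at 0 in all 4 libraries. Of the 5, 4 were higher without overlap (20.6% of all tested genes were). Wnt4 (12 and 14 counts in Ppm1bCKO against 9 and 10 in Ppm1bfl/fl) and Wnt16 passed the filter only through the Ppm1bCKO libraries. The filter thus favoured that count, and nothing is drawn from it. Wnt11 had 5.41 and 5.39 CPM in Ppm1bCKO against 2.52 and 4.51 CPM in Ppm1bfl/fl, and Wnt16 had 11 and 19 counts in Ppm1bCKO against 4 and 5 in Ppm1bfl/fl (1.99 ± 0.65; edgeR adjusted p = 0.645). Wls, which carries Wnt ligands to the cell surface, was far more abundant, at 74.7 and 67.8 CPM in Ppm1bCKO against 77.9 and 67.5 CPM in Ppm1bfl/fl, while Porcn, the enzyme that attaches their lipid, stayed under 1 CPM.

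Genes that set receptor number at the surface gave mixed values. Znrf3, a ligase that removes Frizzleds from the membrane and is itself a Wnt target, had 12.0 and 9.73 CPM in Ppm1bCKO against 16.9 and 15.1 CPM in Ppm1bfl/fl (-0.56 ± 0.22; edgeR adjusted p = 0.717). Lgr5, an R-spondin receptor, had 3.25 and 6.36 CPM in Ppm1bCKO against 2.74 and 2.69 CPM in Ppm1bfl/fl (0.83 ± 0.37; edgeR adjusted p = 0.717). Of the 6 tested genes of that list, 4 were negative. Among inhibitors, 4 of 5 tested genes were negative (50.4% of all tested genes were). They included Kremen1 (-0.30 ± 0.22), a partner of Dkk proteins at LRP6, and Sfrp1 (-0.73 ± 0.73), a secreted Frizzled mimic. Sfrp1 had only 11 and 5 counts in Ppm1bCKO against 23 and 9 in Ppm1bfl/fl, and the genotypes overlapped.

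The alternative Wnt receptors Ptk7 and Ryk had log2 fold changes of -0.44 ± 0.26 and -0.20 ± 0.31. Of 6 tested chaperones and partners of the receptors 4 were negative (50.4% of all tested genes were), among them Adgra2 (-0.52 ± 0.29) and Shisa3 (-1.08 ± 0.65). Shisa3 had only 10 and 4 counts in Ppm1bCKO against 14 and 23 in Ppm1bfl/fl, and the positive genes were the most abundant of that list. Relay genes just below the receptors, the list with the deepest counts, had log2 fold changes near 0, with 7 of 11 negative, 6 of them without overlap (20.6% of all tested genes were lower in this way) and a median of -0.055; Dvl3 (-0.33 ± 0.19) and Csnk1g1 (-0.25 ± 0.19) had the smallest p.

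Among other members of the LDL receptor family, 5 of 8 tested genes were negative, with a median of -0.11. Lrp1, a large endocytic receptor, had 108 and 60.5 CPM in Ppm1bCKO against 190 and 173 CPM in Ppm1bfl/fl (-1.11 ± 0.26; edgeR adjusted p = 0.266; DESeq2 adjusted p = 0.00283). Like Lrp5, it was lowest in Ppm1bCKO replicate 2. Lrp4, a receptor for sclerostin and agrin, had 6.20 and 4.13 CPM in Ppm1bCKO against 8.64 and 7.23 CPM in Ppm1bfl/fl (-0.62 ± 0.29; edgeR adjusted p = 0.717).

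By the distance of mean-centred log2 CPM, among tested genes of like abundance, the nearest to Fzd7 were Iglv3, Otud3 and 4931406C07Rik (3348 genes compared), those near Lrp5 included Rreb1 and Kmt2e (4568 compared), and those near Lrp6 included Tbc1d14 and Arhgap39 (4725 compared). Kmt2e, for example, had 139 and 74.3 CPM in Ppm1bCKO against 156 and 150 CPM in Ppm1bfl/fl, with the same low value in Ppm1bCKO replicate 2 as Lrp5. With 4 libraries these are descriptions only.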

How the data were processed

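The deposited table holds raw whole-number counts per gene for 4 libraries, not normalised, with an exonic length per gene. The submitters' processing notes name Trim Galore (0.6.7), HISAT2 (2.2.0), featureCounts (2.0.1) and the mm10 build, and per the labels' protocols RNA was extracted with TRIzol and prepared with a TruSeq kit. Of 55399 identifiers, 55139 matched a GENCODE annotation of mm10, of which 54347 matched by version and had the same exonic length and positions. All per-sample columns were used.

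The test was a robust edgeR quasi-likelihood fit (version 4.0.16, R 4.3.3) with TMM factors and no covariates, after filterByExpr. That filter, set by genotype, asks for the CPM of 10 counts at the median library size in at least 2 libraries. It also asks for 15 counts in total. CPM uses the TMM factors, and each fold change sets Ppm1bCKO over Ppm1bfl/fl. Each SE was derived from the log2 fold change and its test statistic in the fit, and the 95% interval from that SE. Interval and p therefore rest on the same statistic. Alternatives were DESeq2 1.42.0, DESeq2 size factors, limma-voom (limma 3.58.1), omission of the low-count filter, a minimum CPM of 1 in 2 libraries, the replicate number as a block, removal of each library's length trend (lowess span 0.3), leaving out immunoglobulin genes and leaving out each library. The fit was tested on simulated counts. Within each genotype the 2 libraries differed by more than counting noise.

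Pairwise coding identity was computed with Biopython 1.88, and promoters came from RefSeq. Members and lists were chosen with earlier results of these data known. All 10 members were named, with the 2 tested genes of smallest p in each pathway list (or those called), the most abundant markers, and the 3 nearest genes by pattern for the most abundant Frizzled and for Lrp5 and Lrp6, of which 1 each for Lrp5 and Lrp6 is not reported here. Prg2, Hbb-bs, Igha, Kit and Ly6a were named by the marker part of that rule.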

Additional observations from a re-analysis of the deposited data

How the results depend on the processing

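With all 4 libraries, the tested members kept a negative log2 fold change under each alternative and none was called, the smallest adjusted p being 0.152 (Lrp5 without a low-count filter). Fzd8 did not pass the CPM minimum. Leaving out 1 library at a time, their median log2 fold change ran from -0.65 to -0.29, the lowest without Ppm1bCKO replicate 1. Fzd5 ran from -0.25 to 0.030 and Fzd6 from -0.88 to 0.0047, both positive without Ppm1bfl/fl replicate 1; the cause was not tested. The number of all genes called, 61 in the main test, was 199 by DESeq2, 311 without a low-count filter, and 0 by edgeR with immunoglobulin genes left out, where 989 genes had an unadjusted p under 0.05. It ran from 94 to 3336 with 1 library left out, the highest without Ppm1bCKO replicate 1. With the replicate number as a block, 207 genes and 0 members were called. The libraries share only a number: deviations of same-numbered libraries correlated at 0.064 over genes. The ratio of Ppm1bCKO to Ppm1bfl/fl of summed CPM, 0.770 for the Frizzleds and 0.734 for Lrp5 and Lrp6, moved by less than the spread between replicates with library totals or DESeq2 size factors. Ranking by CPM in place of RPKM changed the rank of 5 members. Depth limits Fzd2, Fzd3 and Fzd8 most.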
